A study of Mus musculus with 10 samples.

Results

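Carbonic anhydrases and the transporters that move bicarbonate and other anions were followed in RNA from mouse colon crypts. The group holds 10 genes of the 33632 in the deposited count table, chosen by name: the carbonic anhydrase genes Car1, Car2, Car4, Car8, Car12 and Car13, and the transporter genes Slc26a2, Slc26a3, Slc26a6 and Slc4a4. All 10 were found by symbol and all 10 passed the filter on low counts. The comparison was between 5 CKO libraries and 5 flox libraries. CKO mice (Lgr5-EGFP-IRES-CreERT2/+;Sox21fl/fl) carried 1 knock-in allele at Lgr5, which drives a green fluorescent protein and a tamoxifen-inducible Cre recombinase in Lgr5-positive stem cells, together with loxP-flanked Sox21 alleles. Flox mice (Sox21fl/fl) carried the same Sox21 alleles without the knock-in. The labels give normal diet and normal liver for every sample and mention neither age nor tamoxifen. The knock-in was present in CKO alone, so its effect and that of Sox21 deletion cannot be told apart. Sox21 is a transcription factor, and the comparison asks what its deletion from stem cells changes in the crypt.

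Carbonic anhydrases convert carbon dioxide and water into bicarbonate and protons, and back. In the colon epithelium the bicarbonate is exchanged for luminal chloride and the proton for luminal sodium, so that salt and water are absorbed. Slc26a3 is the main chloride-bicarbonate exchanger of the colonocyte brush border, and its loss in humans causes congenital chloride diarrhoea. Slc4a4 is a sodium-bicarbonate cotransporter of the basolateral membrane and not an exchanger, and Slc26a2 carries sulfate.

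Total counts ran from 18926634 to 23642415 in CKO libraries and from 21414122 to 23407565 in flox libraries. Sox21 itself was not lower in CKO, at 5.34 ± 1.94 CPM (reads scaled to the normalised library size) in CKO and 4.04 ± 1.80 CPM in flox (SD, n = 5 each). By edgeR's quasi-likelihood test its log2 fold change was 0.38 ± 0.34 (SE) and its adjusted p 0.577. CKO and flox here mean the libraries labelled so, because the level of Sox21 gave no check of the labels. Mitochondrial genes took 4.30% to 11.8% of the counts in CKO libraries and 4.88% to 9.03% in flox 2, flox 3 and flox 5, against 26.5% in flox 1 and 29.3% in flox 4. The fold changes of the 10 genes that moved without flox 1 and flox 4 by more than 1.5 times are therefore given both ways. The tissue label was set beside markers: all 14 surface colonocyte markers passed the filter, with a summed level of 15701 to 28824 CPM in CKO and 16505 to 29729 CPM in flox. The 12 stem and dividing crypt cell markers summed to 474 to 647 CPM in CKO and 398 to 607 CPM in flox. Enteric neuron and glia markers summed to 2.10 to 3.84 CPM in CKO and 2.68 to 4.79 CPM in flox. Mesenchyme and muscle markers reached 182 CPM and red blood cell markers 180 CPM, both in CKO libraries. RNA came from whole crypts, so fewer cells of a type and less RNA per cell cannot be told apart.

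Promoter windows of RefSeq on GRCm38.p6 were searched for 5 of the 10 genes, and Slc26a2 was not among them. Each window was 300 bases long, from 250 before to 50 after a transcription start. The windows of Slc26a3, Car4 and Car12 are shown because these genes behaved unlike each other across the libraries described below. That choice was made with their levels in view. Capitals mark AACAAT or its reverse complement ATTGTT, the core bound by Sox proteins, and TATAAA or its reverse complement TTTATA, the TATA box. Both strands were searched, and no match of one overlapped a match of the other.
Slc26a3 (chr12:31437969-31438268, + strand): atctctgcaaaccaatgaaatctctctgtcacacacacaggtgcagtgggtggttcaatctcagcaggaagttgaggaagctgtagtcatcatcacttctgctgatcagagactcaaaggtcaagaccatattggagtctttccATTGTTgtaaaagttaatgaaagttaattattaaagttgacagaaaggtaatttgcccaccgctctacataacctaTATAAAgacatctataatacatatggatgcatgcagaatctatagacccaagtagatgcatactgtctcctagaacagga
Car4 (chr11:84957504-84957803, + strand): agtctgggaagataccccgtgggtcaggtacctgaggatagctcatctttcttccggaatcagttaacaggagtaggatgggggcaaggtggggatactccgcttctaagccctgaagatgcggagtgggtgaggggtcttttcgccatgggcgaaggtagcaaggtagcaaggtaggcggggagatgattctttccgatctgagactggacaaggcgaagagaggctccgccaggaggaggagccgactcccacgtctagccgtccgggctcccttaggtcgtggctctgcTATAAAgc
Car12 (chr9:66713436-66713735, + strand): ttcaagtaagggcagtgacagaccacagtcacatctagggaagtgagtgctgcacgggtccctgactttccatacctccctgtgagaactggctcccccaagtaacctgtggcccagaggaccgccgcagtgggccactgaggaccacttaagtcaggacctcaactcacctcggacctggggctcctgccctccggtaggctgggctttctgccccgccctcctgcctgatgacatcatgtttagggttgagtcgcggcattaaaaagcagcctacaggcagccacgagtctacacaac
The Slc26a3 window held 1 Sox core, starting at base 145, and 1 TATA box, starting at base 221. Car4 held 1 TATA box at base 293, after the start site, and no Sox core, and Car12 held neither. The windows of Slc26a6 and Slc4a4, which are not shown, held neither, so 1 of the 6 windows searched held a Sox core. Among all 32851 windows of the table, 10.7% held the Sox core and 13.6% the TATA box, so each letter string is common. The Slc26a3 window was poor in CG pairs, with 1, against 15 in Car4 and 9 in Car12. A match describes letters in the window and does not show that a factor binds there.

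None of the 10 genes passed the threshold of an adjusted p of 0.05, by edgeR (0 of 10) or by DESeq2 (0 of 10). The background share called was 0% of 14963 genes by edgeR and 1.21% of 14668 genes by DESeq2. Without flox 1 and flox 4, 0 of the 10 genes were called either, against 0% of 15628 genes by edgeR and 0.454% of 15626 genes by DESeq2. At an unadjusted p under 0.05 there were 3 of the 10 by edgeR, Slc26a2, Slc26a3 and Car2, all higher in CKO, where 13% of all genes tested had such a p, 5.05% with a higher and 7.91% with a lower level in CKO. Without CKO 5 the same 3 genes were under 0.05 by edgeR, where 7.6% of 15134 genes were, 2.87% with a higher level in CKO. In 0 of the 10 did the CKO and flox libraries separate completely, against 2.18% of all genes. Of the 10 fold changes 6 were above 0 and 4 below, with a median log2 fold change of 0.14, where the median of all genes was 0.0010. The 4 transporters had 3 above 0 and the 6 carbonic anhydrases 3.

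**Figure D1:**
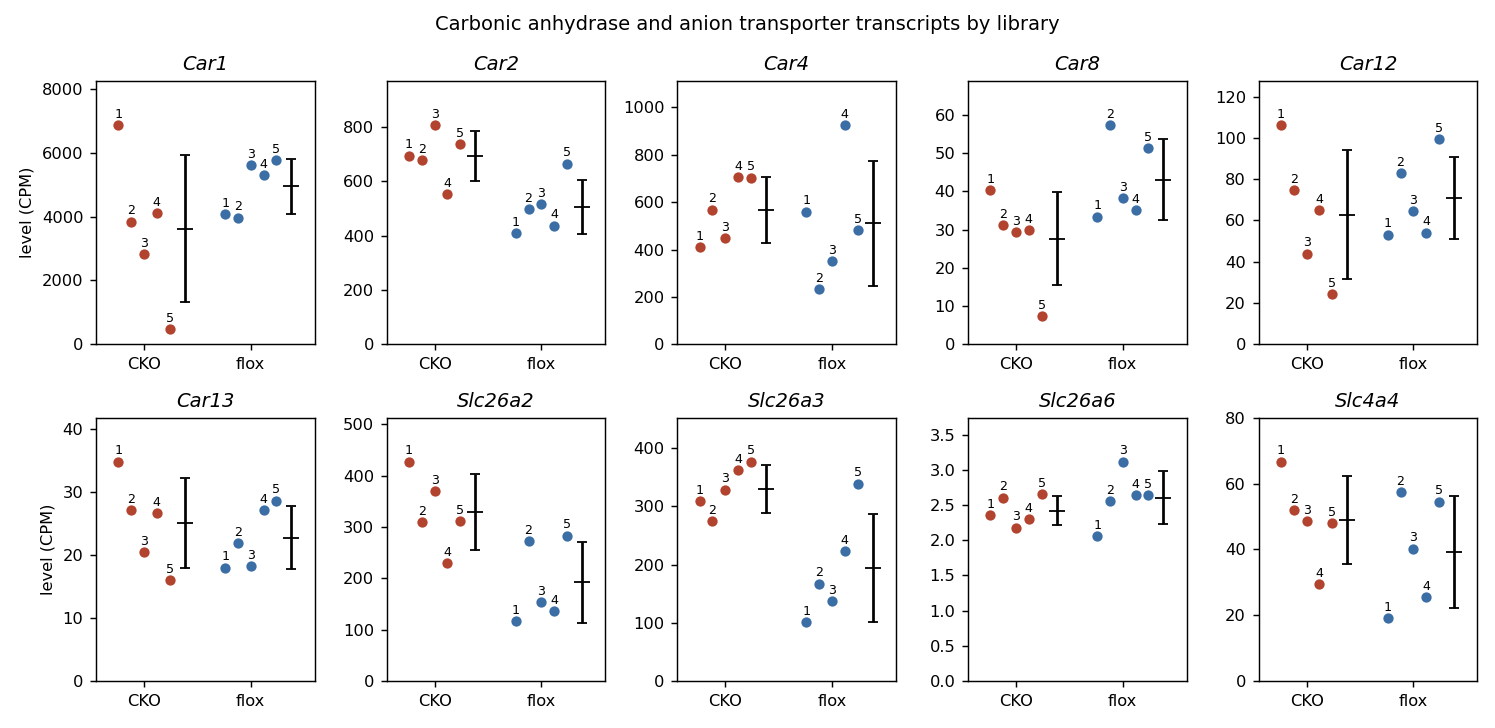
Level of each gene in CPM (y axis, linear from 0) in each library, with CKO in red and flox in blue, the replicate number above each point, and mean and SD (n = 5) as black bars. For Slc26a2 and Car2, all CKO libraries except CKO 4 lie above the whole flox range. CKO 5 is the lowest library for Car1, Car8, Car12 and Car13.

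Among the transporters, Slc26a3 (ENSMUSG00000001225) stood at 310, 274, 329, 363 and 377 CPM in CKO 1 to 5, against 101, 167, 137, 223 and 339 CPM in flox 1 to 5. The CKO libraries lay close together and the flox libraries were spread 3.37-fold, with flox 5 alone among the flox libraries reaching the CKO range. The mean was 331 ± 41.3 CPM in CKO and 194 ± 93.0 CPM in flox (SD, n = 5 each). The log2 fold change was 0.77 ± 0.28 (SE), a ratio of 1.71 with a 95% interval from 1.12 to 2.61, and an edgeR adjusted p of 0.366. Without flox 1 and flox 4 it was 0.63, with an unadjusted p of 0.0387 and an adjusted p of 0.772 in that edgeR fit.

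Slc26a2 (ENSMUSG00000034320), the sulfate transporter whose loss in humans causes diastrophic dysplasia, stood at 427, 309, 370, 230 and 311 CPM in CKO 1 to 5. In flox 1 to 5 it stood at 117, 272, 154, 136 and 283 CPM. All CKO libraries except CKO 4 lay above every flox library, and flox 1 and flox 4 were the lowest of the 10. Its log2 fold change of 0.78 ± 0.27 (SE) was the largest of the 10 genes in the fit of all libraries, with a ratio of 1.71 (95% interval 1.14 to 2.58) and an edgeR adjusted p of 0.365. Without flox 1 and flox 4 it was 0.48, with an unadjusted p of 0.0647 and an adjusted p of 0.803 in that edgeR fit. The mean over flox 1 and flox 4, the libraries rich in mitochondrial counts, was 126 CPM, 0.534 of the mean of 236 CPM over the other flox libraries.

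Slc4a4 (ENSMUSG00000060961), the basolateral sodium-bicarbonate cotransporter, ranged from 29.5 to 66.7 CPM in CKO (median 48.5) and from 19.1 to 57.4 CPM in flox (median 40.2). The groups overlapped over most of their range, and the lowest 3 of the 10 libraries were flox 1, flox 4 and CKO 4, those with the largest mitochondrial shares. Its log2 fold change was 0.31 ± 0.30 (SE, edgeR adjusted p = 0.611) over all libraries and turned to -0.05 without flox 1 and flox 4. With the mitochondrial share as a covariate in the edgeR fit, Slc4a4 was at -0.11 in log2 fold change (adjusted p = 0.936). In that fit Slc26a2 was at 0.43 (unadjusted p of 0.0523, adjusted p = 0.709) and Slc26a3 at 0.66 (unadjusted p of 0.0636, adjusted p = 0.719).

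Slc26a6 (ENSMUSG00000023259), an exchanger of chloride, bicarbonate and oxalate best known from small intestine, pancreas and kidney, was near the lower limit of detection, with 42 to 75 reads per CKO library and 26 to 72 per flox library. Its level was 2.42 ± 0.202 CPM in CKO and 2.60 ± 0.378 CPM in flox (SD, n = 5 each). The log2 fold change was -0.11, and -0.18 without flox 1 and flox 4. The ratio over all libraries was 0.928 with a 95% interval from 0.696 to 1.24 and an edgeR adjusted p of 0.782. Counting error alone is a sizeable part of the spread at this depth. Changes of the size of the Slc26a3 ratio lie outside that interval.

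The carbonic anhydrases showed no common direction, with 3 fold changes above 0 and 3 below. Car2 (ENSMUSG00000027562), the fast cytosolic enzyme, stood at 695, 678, 808, 555 and 737 CPM in CKO 1 to 5. It stood at 410, 498, 516, 437 and 666 CPM in flox 1 to 5. The CKO libraries other than CKO 4 were above every flox library, and flox 5 was the only flox library above CKO 4. The log2 fold change of 0.46 ± 0.17 (SE) gave a ratio of 1.37 (95% interval 1.06 to 1.78) and an edgeR adjusted p of 0.372. It was 0.32 without flox 1 and flox 4, with an unadjusted p of 0.0950 and an adjusted p of 0.812 in that edgeR fit.

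Car4 (ENSMUSG00000000805), anchored to the apical membrane of colonocytes, stood at 410, 569, 449, 706 and 703 CPM in CKO 1 to 5. In flox 1 to 5 it stood at 560, 232, 350, 926 and 482 CPM. The flox values spread 3.99-fold around the CKO values, and flox 4 held the highest of the 10. Its log2 fold change was 0.15 ± 0.33 (SE, edgeR adjusted p = 0.822) over all libraries. Without flox 1 and flox 4 it was 0.69, with an unadjusted p of 0.0266 and an adjusted p of 0.737 in that edgeR fit. With the mitochondrial share as a covariate it was 0.73, with an unadjusted p of 0.0125 and an adjusted p of 0.584 by edgeR. In flox 1 and flox 4 the mean was 743 CPM, 2.09 times the mean of 355 CPM in the other flox libraries, the opposite order to Slc26a2 and Slc4a4. In the fit without flox 1 and flox 4, 2 of the 10 genes, Slc26a3 and Car4, had an unadjusted p under 0.05, both higher in CKO, where 6.41% of 15628 genes did, 3.34% with a higher level in CKO.

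Car1 (ENSMUSG00000027556), a cytosolic enzyme and the most abundant of the group, stood at 6872, 3843, 2814, 4105 and 481 CPM in CKO 1 to 5. In flox 1 to 5 it stood at 4076, 3966, 5617, 5302 and 5774 CPM. The flox libraries lay within 1.46-fold of each other, while the CKO libraries spanned 14.3-fold, with CKO 1 the highest of all 10 and CKO 5 the lowest. The means were 3623 ± 2311 CPM in CKO and 4947 ± 863 CPM in flox (SD, n = 5 each). On the log2 scale Car1 differed by -0.45 ± 0.50 (SE; edgeR adjusted p = 0.653). The difference was -0.16 without CKO 5 and -0.81 without CKO 1, so its size depended on these libraries.

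Car8 (ENSMUSG00000041261), a relative that lacks the enzymatic activity, stood at 40.4, 31.2, 29.4, 29.8 and 7.32 CPM in CKO 1 to 5. It stood at 33.4, 57.4, 38.2, 35.1 and 51.3 CPM in flox 1 to 5. CKO 2 to 5 were below every flox library, and CKO 1 lay inside the flox range. The log2 fold change was -0.64 ± 0.35 (SE, edgeR adjusted p = 0.417), -0.82 without flox 1 and flox 4 and -0.40 without CKO 5. With all 3 of these libraries left out it was -0.58, with an unadjusted p of 0.00557 and an adjusted p of 0.739 in that edgeR fit, a choice made after the data were seen.

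Car12 (ENSMUSG00000032373), a transmembrane enzyme with its active site outside the cell, stood at 106, 74.7, 43.9, 65.0 and 24.2 CPM in CKO 1 to 5, against 53.2, 83.1, 64.6, 54.1 and 99.3 CPM in flox 1 to 5. CKO held both the highest and the lowest library. Its log2 fold change was -0.17 ± 0.33 (SE, edgeR adjusted p = 0.799) over all libraries, -0.39 without flox 1 and flox 4 and 0.03 without CKO 5. Car13 (ENSMUSG00000027555), a further cytosolic enzyme, ranged from 16.0 to 34.8 CPM in CKO (median 26.7) and from 18.0 to 28.6 CPM in flox (median 21.9), a ratio of 1.10 with a 95% interval from 0.794 to 1.52. Car1, Car2 and Car13 are neighbours on chromosome 3 and related in sequence, and reads shared between them were not measured.

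**Figure D2:**
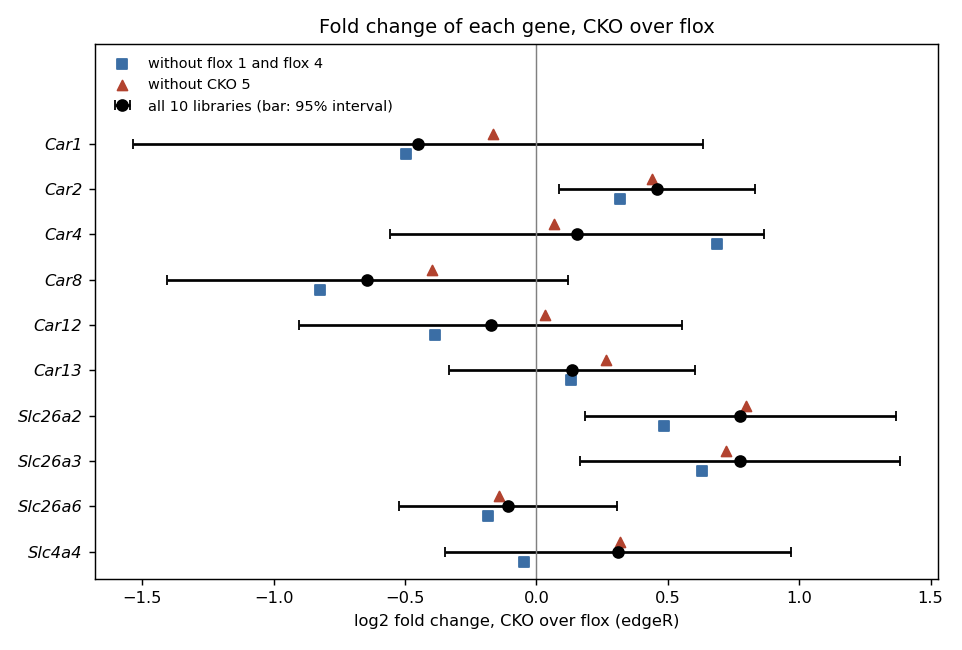
Log2 fold change of each gene, CKO over flox, in the edgeR fit of all 10 libraries (black circles, with 95% intervals), without flox 1 and flox 4 (blue squares) and without CKO 5 (red triangles). The intervals of Slc26a2, Slc26a3 and Car2 lie above 0 before adjustment for the number of genes, Car4 is farther from 0 without flox 1 and flox 4, and Car1, Car8 and Car12 are nearer to 0 without CKO 5.

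CKO 5 held the lowest level of all 10 libraries in Car1, Car8, Car12 and Car13. It lay near the other CKO libraries in Car2, Car4 and the 4 transporters. Its Car1 level was 0.109 of the mean of CKO 1 to 4 (4408 CPM), and 93 of 14963 genes had a lower ratio. Its Car8 level was 0.224 and its Car12 level 0.334 of that mean, and 204 and 374 genes had lower ratios. Car13 was at 0.585 of the mean, while Car2 was at 1.08, Car4 at 1.32, Slc26a3 at 1.18 and Slc26a2 at 0.930. Over all genes, 1.58% were below 0.25 of the mean of the other CKO libraries, and 2 of the 10 genes, Car1 and Car8, were among them.

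Several marker genes differed in the same library. Hoxb13, a Hox gene of the distal colon, stood at 116, 178, 275, 105 and 397 CPM in CKO 1 to 5 and at 159, 86.0, 154, 218 and 83.7 CPM in flox 1 to 5, so that CKO 5 held the highest level and CKO 3 the next. Those libraries also held the lowest and the next lowest Car1 level. That order did not hold in every library. Flox 4, with 218 CPM of Hoxb13, held 5302 CPM of Car1. Flox 2, with 86.0 CPM of Hoxb13, held 3966 CPM of Car1, the lowest of flox, and flox 5, with 83.7 CPM, held 5774 CPM, the highest of flox. The 3 Hox13 genes on the list summed to 136 to 462 CPM in CKO and 104 to 251 CPM in flox. The 9 mesenchyme and muscle markers, of which 7 were tested, summed to 182 CPM in CKO 5, against 44.7 to 119 CPM in the other CKO libraries and 17.2 to 63.3 CPM in flox. Of the 14 surface colonocyte markers, 8 were at their lowest in CKO 5, where the summed level of 15701 CPM was the lowest of all 10 libraries. Slc51a, a bile acid transporter subunit of that list, stood at 3.04 CPM in CKO 5, against 45.3 to 65.8 CPM in the other CKO libraries and 43.4 to 91.9 CPM in flox. Slc37a2 of the same list went the other way, with its highest level of all 10 libraries in CKO 5, at 114 CPM. Low markers in CKO 5 were not limited to surface colonocytes. Of the 8 tuft and enteroendocrine markers, 5 were also at their lowest there. The labels do not give the stretch of colon sampled, and the part of these marker groups in the Car1 values was not tested.

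Goblet cell markers (all 9 tested) summed to 13676 to 24496 CPM in CKO and 25151 to 40029 CPM in flox, with no overlap, beside the higher means of Slc26a2, Slc26a3 and Car2 in CKO. Taken singly, 8 had a fold change below 0 and 2, Muc2 and Spdef, separated completely. Atoh1 went the other way, with a mean of 63.7 CPM in CKO and 57.3 CPM in flox. EdgeR called 0 of the 9 and DESeq2 called 1, where DESeq2 called 1.21% of all genes. The gene called was Muc2, the main mucin, at 8591 ± 2060.4 CPM in CKO and 14237 ± 3135 CPM in flox (SD, n = 5 each, DESeq2 adjusted p = 0.0434). The part of the goblet marker difference in the transporter values was not tested. Red blood cells also hold Car1 and Car2. Their 9 matched markers, of which 4 were tested, summed to 20.7 to 180 CPM in CKO, highest in CKO 4, and 9.17 to 62.7 CPM in flox, and none was at 0 in all libraries. Slc4a1, the anion exchanger of the red cell membrane, had 2 reads in CKO 4 and 0 in every other library. Hbb-bs, a beta globin, stood at 8.91 to 60.1 CPM in CKO, highest in CKO 4, and 2.77 to 14.7 CPM in flox. The part of red blood cells in the Car1 and Car2 values was not tested.

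Measured per length, in the FPKM values that the authors deposited, the order of the genes in CKO was Car1, Car4, Car2, Slc26a3, Slc26a2, Car12, Car13, Car8, Slc4a4 and Slc26a6. In flox the order was the same but for Car8 ahead of Car13. Car1 averaged 4738 ± 2997 FPKM in CKO and 5079 ± 1865 FPKM in flox, and Slc26a6 averaged 1.13 ± 0.193 FPKM in CKO and 1.03 ± 0.397 FPKM in flox (SD, n = 5 each). Car4 averaged 699 ± 165 FPKM and Car2 566 ± 130 FPKM in CKO, and 433 ± 127 and 331 ± 149 FPKM in flox, and Car4 was above Car2 in 3 of 5 libraries of each group, so the order of this pair did not hold beyond the spread. Slc26a3 was above Slc26a2 in 5 of 5 libraries of each group, although their means ± SD overlapped in flox. Car12 was above Car13 in 4 of 5 CKO libraries, and Slc26a2 above Car12 in 4 of 5 flox libraries. Car13 was above Car8 in 5 of 5 CKO libraries and below it in 4 of 5 flox libraries. Slc4a4 was above Slc26a6 in 5 of 5 libraries of each group, with ranges that did not overlap. Slc26a3 averaged 150 ± 24.8 FPKM in CKO and 69.5 ± 44.7 FPKM in flox. The totals behind the FPKM are not stated, so they serve here for comparing genes within a library.

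As shares of the summed FPKM of the 6 carbonic anhydrases, Car1 took 89.0%, 79.7%, 75.3%, 80.2% and 30.3% in CKO 1 to 5. In flox 1 to 5 it took 83.4%, 87.5%, 89.1%, 81.9% and 86.4%. Car1 was thus the predominant transcript in every library but CKO 5, where Car4 took 40.8% and Car2 27.9%. Outside CKO 5, Car4 took 4.90% to 12.8% in CKO and 4.75% to 13.3% in flox, and Car2 took 5.46% to 12.9% in CKO and 4.22% to 6.76% in flox. Car8, Car12 and Car13 each took 0.473% or less in all 10 libraries.

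**Figure D3:**
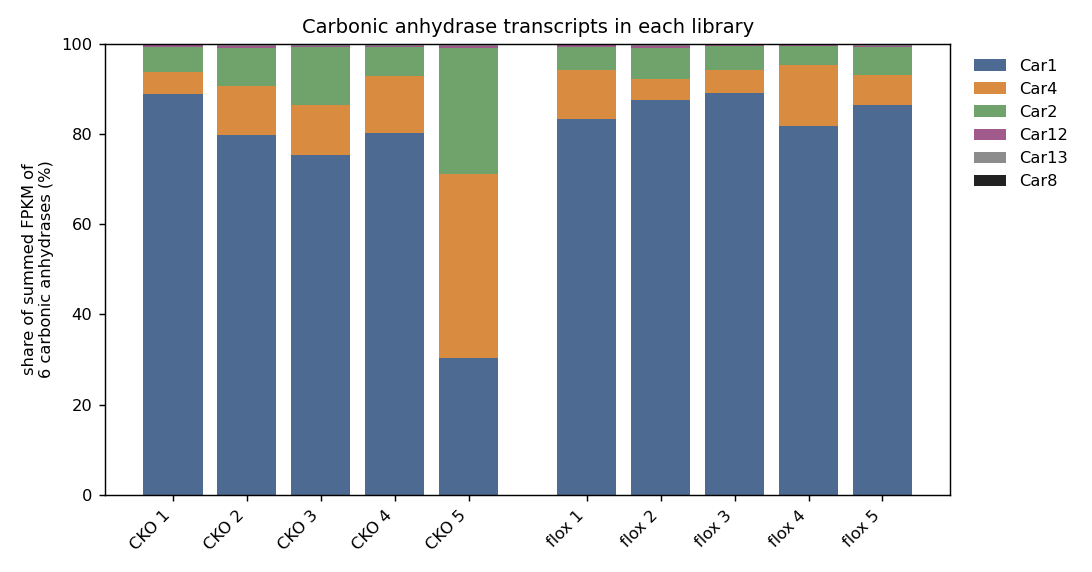
Share of each carbonic anhydrase in the summed FPKM of the 6 genes (y axis, percent) in each library, CKO on the left and flox on the right. Car1 fills 75.3% to 89.1% of every bar except that of CKO 5, where it fills 30.3%.

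Among the 4 transporters, Slc26a3 held the greatest share of the FPKM in all libraries, 64.3% to 80.0% in CKO and 59.0% to 78.4% in flox. Slc26a2 held 17.2% to 30.3% in CKO and 16.7% to 33.2% in flox, so the balance between the pair overlapped between the groups. Slc26a6 held 0.455% to 0.670% in CKO and 0.691% to 1.73% in flox, a range without overlap that goes with its even CPM level beside the higher Slc26a2 and Slc26a3 means. The summed level of the 4 genes was 711 ± 77.4 CPM in CKO and 428 ± 169 CPM in flox, and that of the 6 carbonic anhydrases was 5000.4 ± 2244 CPM in CKO and 6099 ± 1020 CPM in flox (SD, n = 5 each).

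The profiles of the 10 genes over the libraries fell into unlike shapes. Likeness was measured as the root mean square difference of log2 CPM over the 10 libraries, each gene centred on its own mean. Car8 and Car12 differed by 0.38 and Car1 and Car8 by 0.44 on this log2 scale, sharing the low value in CKO 5. Slc26a2 and Slc4a4 were the closest of the 45 pairs, at 0.30, and Car2 and Slc26a2 differed by 0.35, sharing low values in flox 1 and flox 4. Car1 and Slc26a3, the major enzyme and the major exchanger, differed by 1.37, the most of any pair.

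**Figure D4:**
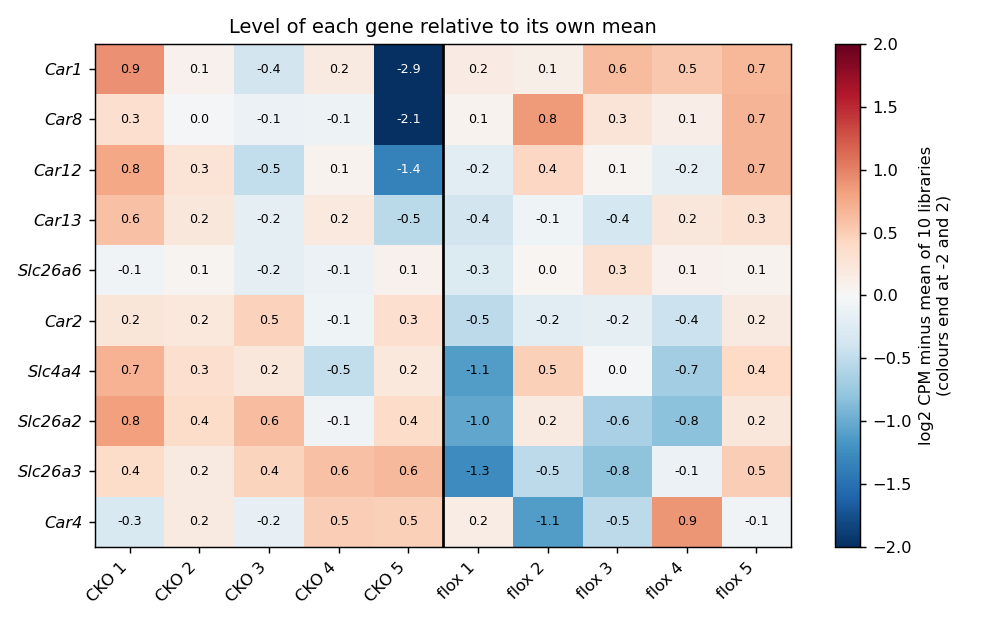
Log2 CPM of each gene (rows) in each library (columns, CKO left of the black line and flox right of it) minus the gene's mean over the 10 libraries. Car1, Car8 and Car12 are lowest in CKO 5, at -2.92, -2.11 and -1.35, and Slc26a2, Slc26a3 and Slc4a4 are lowest in flox 1, at -1.05, -1.26 and -1.11.

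Among 9638 other genes with at least 5 CPM, those close to Car1 included H2-T3 and Fam78a (differences of 0.25 and 0.27 on the log2 scale). The closest to Car8 were the carboxylesterase genes Ces1g and Ces1f and the receptor gene Ntrk2 (0.17, 0.23 and 0.23), and to Car12 they were Mgat4c, Hsd3b3 and Slc35d1 (0.10, 0.18 and 0.19). With differences this small, these neighbours were also low in CKO 5. The closest to Slc26a3 were Slc15a1, a peptide transporter, Phlpp2 and Acap2 (0.26, 0.29 and 0.30), and to Slc26a2 they were Arl6ip6, Slc2a13 and Sgms1 (0.14, 0.15 and 0.16). Car4 was closest to Slc6a8, a creatine transporter, Cyp2d34 and Stom (0.27 each). Slc26a3 and Car4 therefore had looser neighbours than the other transporters and Car2. Car2 was closest to Arhgap26, Pttg1ip and Tmem260 (0.10, 0.11 and 0.12), and Car13 to Abcg2, an efflux pump, Chp1 and Rock2 (0.10, 0.11 and 0.12). Slc4a4 was closest to Ipp, Herc2 and Mut (0.11, 0.12 and 0.12), and Slc26a6, whose centred values stayed within -0.27 and 0.31, to Ssr2, Mars and Leo1 (0.07 each).

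Several further members of these families were measured. Of the other carbonic anhydrase genes, 8 of 10 listed were matched and 4 were tested, with 0 past the threshold in either direction by edgeR and by DESeq2 and a median log2 fold change of -0.77, against 0.0010 over all genes. Without flox 1 and flox 4 that median was -0.11 over 5 tested genes. Car9, a membrane enzyme induced by low oxygen, was the most abundant, at 59.9 ± 6.84 CPM in CKO and 54.0 ± 8.47 CPM in flox. The smallest p belonged to Car15, at 1.45 ± 0.349 CPM in CKO and 3.06 ± 1.63 CPM in flox (edgeR adjusted p = 0.365), with a log2 fold change of -1.06 over all libraries and -0.44 without flox 1 and flox 4. Next was Car11, an inactive relative, at 0.526 ± 0.189 CPM in CKO and 0.976 ± 0.264 CPM in flox (edgeR adjusted p = 0.372, SD, n = 5 each for all 3 genes). The 5 CKO values of Car11 were all below the flox values, where 2.18% of all genes separated completely in either direction. The margin was as small as 0.768 CPM in CKO 4 against 0.779 CPM in flox 5. Car11 had 7 to 19 reads per CKO library and 11 to 31 per flox library.

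Of the other SLC26 genes, 7 of 8 listed were matched and 2 were tested, with 0 past the threshold by edgeR and by DESeq2. Slc26a10 stood at 3.81 ± 3.79 CPM in CKO and 12.1 ± 15.0 CPM in flox (SD, n = 5 each). Its log2 fold change was -1.67 and turned to 0.25 without flox 1 and flox 4, while the median of the pair tested was -0.67. Slc26a11, a sulfate transporter, stood at 3.71 ± 0.762 CPM in CKO and 2.91 ± 1.15 CPM in flox, 0.33 on the log2 scale and 0.04 without flox 1 and flox 4. All 9 other SLC4 genes were matched and 4 were tested, with 0 past the threshold by edgeR and by DESeq2 and a median log2 fold change of -0.37, or -0.69 without flox 1 and flox 4. Slc4a2, a widely expressed chloride-bicarbonate exchanger, was the most abundant of them, at 297 ± 97.1 CPM in CKO and 386 ± 39.8 CPM in flox (edgeR adjusted p = 0.442). Slc4a3 had the smallest p, at 0.298 ± 0.165 CPM in CKO and 0.830 ± 0.327 CPM in flox (edgeR adjusted p = 0.365, SD, n = 5 each), on 2 to 14 reads per CKO library and 8 to 23 per flox library.

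Of 20 partner genes, which move protons, sodium and chloride alongside bicarbonate or scaffold these carriers, all were matched and 18 tested. EdgeR called 0, and DESeq2 called 1 lower in CKO and 0 higher, where DESeq2 called 1.21% of all genes. The median log2 fold change was 0.25, and 0.10 without flox 1 and flox 4. The gene called by DESeq2 was Slc9a8, a sodium-proton exchanger, at 55.0, 56.2, 55.6, 57.4 and 49.6 CPM in CKO 1 to 5, against 70.0, 65.8, 72.1, 72.4 and 63.7 CPM in flox 1 to 5. All 5 CKO libraries lay below all flox libraries, where 2.18% of all genes separated completely in either direction. The log2 fold change was -0.33 ± 0.09 (SE), with an adjusted p of 0.332 by edgeR and 0.0161 by DESeq2, and -0.29 without flox 1 and flox 4, where the DESeq2 adjusted p was 0.396. Slc9a3, the apical sodium-proton exchanger that works beside Slc26a3, stood at 189 ± 69.3 CPM in CKO and 148 ± 90.3 CPM in flox (edgeR adjusted p = 0.659), 0.35 on the log2 scale and 0.05 without flox 1 and flox 4. Cftr, the chloride and bicarbonate channel of the crypt, stood at 68.0 ± 12.6 CPM in CKO and 40.6 ± 18.9 CPM in flox (SD, n = 5 each, edgeR adjusted p = 0.372). Its lowest libraries were flox 1 and flox 4, and its log2 fold change was 0.74 over all libraries and 0.40 without them (edgeR adjusted p = 0.812). The rule for named genes does not cover Slc9a3 and Cftr, which were picked with their values in view for their known work beside Slc26a3.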

How the data were processed

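RNA sequencing of colon crypts gave 1 library per sample, 5 CKO and 5 flox, with groups and numbers read from titles. Nothing in the labels says that samples were separate animals, so a p-value speaks of the spread among these samples, which may be technical. Per the labels' protocols, libraries were made with a TruSeq kit after mRNA enrichment. The submitters' processing notes name fastp and HISAT2 without versions. The counting tool, strand setting, build and annotation were not given in the sources used here. Read counts were deposited as whole numbers for each Ensembl gene, without normalisation. The deposited FPKM values are the authors' own, with gene lengths and totals not stated.

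Symbols, gene types and lengths came from GENCODE M21 (26095 of 33632 IDs had a symbol) and promoter windows from RefSeq on GRCm38.p6. M21 lists no other gene sharing exon bases with the 10 genes. Counts were filtered with filterByExpr (14963 genes left), scaled by trimmed mean of M values and tested with edgeR 4.0.16 in R 4.3.3 (robust quasi-likelihood, group as the only term, Benjamini-Hochberg over all tested genes, threshold 0.05). DESeq2 1.42.0 and limma 3.58.1 were alternatives. Tests were checked on simulated data. The genes and lists were chosen with earlier results of these data known. Named outside the 10 are, in the 3 lists of other family genes and the partner list, genes past the threshold by edgeR or DESeq2, or else the 2 of smallest p, and the 3 closest profiles per gene (1 is not reported here); others (Car9, Slc9a3, Cftr, single marker genes) were picked with their values in view. No libraries were duplicates: chi-square per degree of freedom was at least 27.1 in every pair.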

Additional observations from a re-analysis of the deposited data

Results flagged for a closer look

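In 3 of 40 combinations of gene, measure and group, 1 library lay far from the other 4 of its group, by a gap of more than 0.710 of the group's range. Chance alone gives about 1 in 20. All 3 are shares of the summed carbonic anhydrase FPKM in CKO 5: the Car1 share of 30.3%, against 75.3% to 89.0% in the other CKO libraries, the Car4 share of 40.8%, against 4.90% to 12.8%, and the Car13 share of 0.440%, against 0.196% to 0.245%. Shares of 1 whole move together, so these are not separate observations. The Car13 level itself was not high in CKO 5, at 16.0 CPM, the lowest of the CKO libraries. Levels in CPM were examined by the same rule and none was flagged, so the low Car1, Car8 and Car12 levels of CKO 5 did not pass it.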

How the results depend on the processing

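With 5 libraries a group, reads were few for Slc26a6 alone of the 10 genes, and the spread between libraries limits the rest. The Slc26a6 estimate was still among the most precise, with an SE of 0.19 on the log2 scale. Of the 10 genes only Car2 had a smaller SE, at 0.17. Under 27 alternatives to the analysis of the report, 0 of the 10 genes passed the threshold in any. Car1, Car2, Car8, Slc26a2 and Slc26a3 kept their direction in all 27. The lowest adjusted p of any alternative was 0.0605 for Slc26a2, 0.0647 for Slc26a3 and 0.0929 for Car2. All 3 came from 1 setting, limma voom with quality weights. There 3564 of 14963 genes had an unadjusted p under 0.05 and 44 were called. The alternative without flox 1, flox 4 and CKO 5 was chosen after the data were seen.

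Other directions turned. Without flox 1 and flox 4, Slc4a4 was at -0.047 in log2 fold change (edgeR) and -0.052 by DESeq2, at -0.042 with CKO 5 left out as well, and at -0.11 with the mitochondrial share as a covariate. Scaling by total counts put Car12 at 0.079 and Slc26a6 at 0.24, limma on log2(FPKM + 1) at 0.11 and 0.091, and on log2(FPKM + 0.1) at 0.12 and 0.20. Those 3 settings move the median of all genes to 0.36, 0.30 and 0.41, and Car12 and Slc26a6 lie below that shift. With 1 library left out at a time, Car4 ranged from -0.029 (without flox 2) to 0.49, Car13 from -0.012 (without CKO 1) to 0.26 and Car12 from -0.45 to 0.034 (without CKO 5).

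Over all genes edgeR called 0. DESeq2 called 178, and 71 without flox 1 and flox 4. Limma voom with quality weights called 44, edgeR without a filter 3, with the mitochondrial share as a covariate 1, without flox 1, flox 4 and CKO 5 1, and with 1 library left out 0 to 2 (2 without flox 2).

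The median log2 fold changes of small lists moved more. For the other carbonic anhydrases it was -0.34 by total counts, -0.075 without a filter, -0.15 and -0.29 on log2(FPKM + 1) and log2(FPKM + 0.1), -0.22 with the mitochondrial share, -0.11 without flox 1 and flox 4 (-0.12 by DESeq2) and -0.29 without CKO 5 as well. For the other SLC26 genes it was 0.010 and 0.054 on the FPKM scales, 0.054 with the mitochondrial share, 0.036 without flox 1 and flox 4 (0.031 by DESeq2) and -0.022 without CKO 5 as well. For the other SLC4 genes it was 0.0057 and 0.12 on the FPKM scales. For the partners it was 0.57 by total counts and 0.66 and 0.67 on the FPKM scales. These settings also moved the median of all genes, to 0.36 by total counts and 0.30 and 0.41 on the FPKM scales. The list medians at those settings include that shift. The cause of the other movements was not tested.

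Replicate numbers are shared between the groups, but the labels do not say that a number pairs animals. Deviations of libraries with the same number correlated from -0.30 to 0.40, and 0 of 5 CKO libraries matched their own number best. With the replicate block, 0 of the 10 genes and 0 of all genes passed, and the log2 fold change was 0.89 for Slc26a3 and 0.84 for Slc26a2. In counts per kilobase of reference gene length, 8 of 10 genes kept their FPKM rank in CKO and 7 of 10 in flox.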
